A study of Rattus norvegicus with 13 samples.

Results

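The miRNAs described here are 7 mature rat miRNAs that are widely used as markers of white blood cells: rno-miR-142-5p, rno-miR-142-3p, rno-miR-223-3p, rno-miR-223-5p, rno-miR-150-5p, rno-miR-342-3p and rno-miR-342-5p, written below without the rat prefix. They were taken by name from the rat mature miRNAs of a small RNA sequencing table of rat kidney, 7 of 460, and all 7 passed the filter on low counts that left 419 miRNAs for testing. The 13 kidney samples came from female rats of the inbred Wistar strain WAG/RijCmcr, 11 to 12 weeks old and about 155 g at irradiation, and all were removed at day 35. Control rats (n = 4) received 0 Gy and no drug. The irradiated group (n = 4) was exposed to a single 13 Gy dose (320 kVp, 1.75 Gy per minute) over the body except for a single shielded hind limb, whose marrow was thereby spared. The lisinopril group (n = 5) had the same exposure and was given that blocker of angiotensin converting enzyme in its drinking water, at about 24 mg/m2/day, starting on day 7. Supportive saline injections on days 3 to 7 and the antibiotic enrofloxacin up to day 14 are described for the irradiation protocol, and the labels do not say whether controls received them. Kidneys were taken out and their total RNA extracted, with no cell sorting described. The labels list 13 separate kidney samples and do not say that each is a different rat, so p-values measure the spread between these samples.

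Most miRNAs are cut from a hairpin transcript, and either arm of the hairpin (5p or 3p) can be loaded into the silencing complex, where its seed, bases 2 to 8, pairs with target mRNAs. miR-142 is made in nearly all cells of the blood lineages and serves as a general leukocyte marker. miR-223 is most abundant in neutrophils and other myeloid cells, and miR-150 in mature B, T and NK lymphocytes. miR-342 is also high in lymphocytes and is processed from an intron of Evl. Kidney holds resident macrophages and dendritic cells, passing lymphocytes and the leukocytes of the blood left in its vessels. In whole-tissue RNA, fewer cells of a type and less RNA per cell cannot be told apart.

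The mature sequences are shown because both arms of each hairpin were counted and because base composition differed between them. They are the RefSeq entries of the GRCr8 build, matched by miRNA name for 6 of the 7, 5′ to 3′ with the seed in capitals.
rno-miR-142-5p: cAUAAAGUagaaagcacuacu
rno-miR-142-3p: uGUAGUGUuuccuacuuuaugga
rno-miR-223-3p: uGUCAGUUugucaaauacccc
rno-miR-223-5p: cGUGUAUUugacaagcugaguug
rno-miR-342-3p: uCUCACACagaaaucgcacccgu
rno-miR-342-5p: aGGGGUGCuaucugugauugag
No 2 of these seeds were alike, and 0 other rat mature miRNAs in the RefSeq table carried any of them. The miR-142 arms were the poorest in G and C, at 33.3% for miR-142-5p and 34.8% for miR-142-3p, against a median of 45.8% over the 377 tested miRNAs with a sequence. The miR-223 arms held 42.9% (miR-223-3p) and 43.5% (miR-223-5p). The miR-342 arms were the richest, at 52.2% for miR-342-3p and 50% for miR-342-5p.

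The hairpin of miR-142 shows how its arms face each other, with the mature arms in capitals, the 5p arm first.
Mir142: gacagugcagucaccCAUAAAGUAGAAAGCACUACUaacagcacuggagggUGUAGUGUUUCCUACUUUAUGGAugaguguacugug
Laid against the reverse complement of the 3p arm, miR-142-5p matched at 18 of 21 positions. In the GRCr8 annotation, used here for neighbourhood and not for coordinates, Mir142 lies within the span of Tspoap1 beside Mpo, the gene of the neutrophil granule enzyme myeloperoxidase. Mir223 lies within a long non-coding RNA gene between Msn and Vsig4, and Mir342 within Evl. The submitters' processing notes name another build, rn4, so no positions are given.

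Library depth ranged from 1194175 counts of rat miRNAs in control kidney 2 to 11095939 in lisinopril-treated kidney 4, with 4885082 or more in every library but control kidney 2. Values are counts per 1000000 (CPM) on library sizes scaled by the trimmed mean method (TMM), and a count of 3 was taken as the floor of detection. That floor was 3.19 CPM in control kidney 2 and 0.289 to 0.561 CPM in the other 12, for counting error only, since reads carried no molecular identifiers. The 7 miRNAs together made up 0.0671% to 0.161% of rat miRNA counts. Markers of the labelled tissue were far above them: miR-192-5p, miR-194-5p, miR-204-5p and miR-30a-5p of kidney tubules summed to 137297 to 194338 CPM in control, 91249 to 158039 CPM in irradiated and 122704 to 192690 CPM in lisinopril-treated kidneys.

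In unirradiated kidney the lymphocyte miRNA miR-150-5p was the most abundant of the 7 at 478 ± 172 CPM (SD, n = 4), which placed it 71st of 460 rat miRNAs by mean over all libraries. miR-142-5p followed at 226 ± 69.6 CPM, and the lowest control value of miR-150-5p lay above the highest of miR-142-5p. miR-342-3p stood at 84.3 ± 16.0 CPM, miR-142-3p at 57.3 ± 19.9 CPM and miR-223-3p at 47.2 ± 6.02 CPM, and the ranges of neighbours in this order overlapped. The minor arms were lower, 10.8-fold between miR-223-3p and the next miRNA in the order, with miR-342-5p at 4.37 ± 1.74 CPM and miR-223-5p at 1.91 ± 0.882 CPM, and their ranges also overlapped. Levels of different miRNAs also depend on how well each sequence is ligated and amplified, which was not tested.

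**Figure D1:**
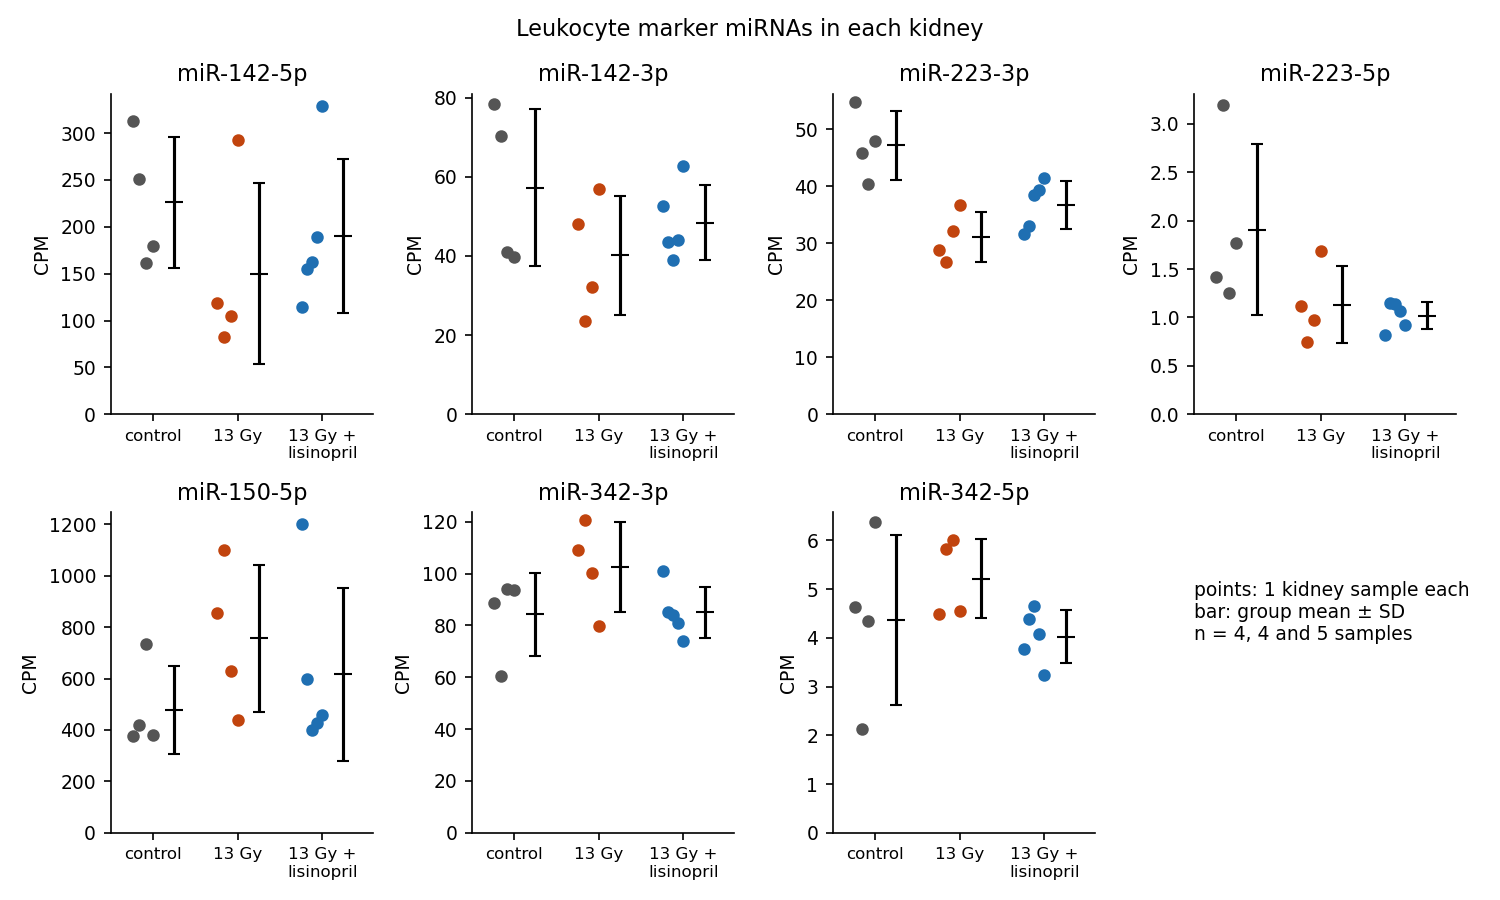
CPM (vertical axes, each starting at 0) of the 7 leukocyte miRNAs, 1 point per kidney sample, from 4 control, 4 irradiated and 5 lisinopril-treated irradiated kidneys, with the group mean ± SD beside the points. miR-223-3p was at 40.3 CPM or more in every control and at 36.7 CPM or less in every irradiated kidney without the drug. Controls and irradiated kidneys without the drug overlapped for the other 6. For miR-223-5p every lisinopril-treated kidney lay below every control.

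miR-223-3p, the myeloid marker, was the only one of the 7 whose irradiated and control values did not overlap. It was at 54.9, 45.7, 40.3 and 47.9 CPM in control kidneys 1 to 4 and at 28.8, 26.7, 32.1 and 36.7 CPM in irradiated kidneys 1 to 4. Each irradiated kidney thus lay below the lowest control. The log2 fold change was -0.61 (SE 0.155, 95% interval -0.94 to -0.28), a level 1.52-fold lower, and its adjusted p of 0.065 does not pass the threshold of 0.05 (quasi-likelihood test of edgeR, Benjamini-Hochberg over 419 miRNAs). It ranked 9th of the 419 by p. Lower without overlap was also found for 4.53% of all tested miRNAs in this comparison. With irradiated kidney 4 left out, miR-223-3p passed at an adjusted p = 0.0227 (log2 fold change -0.68), and without control kidney 3 at 0.0484 (-0.69), in edgeR fits where 14% and 2.66% of all miRNAs tested passed.

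Of the opposite arm, miR-223-5p, libraries held only 3 to 15 counts. It was at 1.42, 3.19, 1.25 and 1.77 CPM in control kidneys 1 to 4, where the value of control kidney 2 rests on 3 counts and equals its floor. Irradiated kidneys 1 to 4 held 1.12, 0.744, 0.977 and 1.68 CPM. The highest irradiated value exceeded the lowest control values, and the log2 fold change was -0.50 (SE 0.313, edgeR adjusted p = 0.386), and -0.32 without irradiated kidney 2.

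The general leukocyte miRNA miR-142-5p was at 313, 251, 161 and 179 CPM in control kidneys 1 to 4. In irradiated kidneys 1 to 4 it was at 119, 82.1, 105 and 293 CPM. Irradiated kidneys 1 to 3 lay below every control, and irradiated kidney 4 lay among the controls. Over all 4 the log2 fold change was -0.59 (SE 0.384, 95% interval -1.41 to 0.23, edgeR adjusted p = 0.359). Without irradiated kidney 4 it was -1.13 at an adjusted p = 0.0327, in a fit where 14% of all miRNAs tested passed, and it was -0.39 without control kidney 1 and -0.38 without irradiated kidney 2. The 3p arm, miR-142-3p, was at 78.3, 70.2, 40.9 and 39.6 CPM in controls and at 48.0, 23.6, 32.1 and 56.9 CPM in irradiated kidneys. Those groups overlapped, and its log2 fold change was -0.50 (SE 0.286, 95% interval -1.11 to 0.11, edgeR adjusted p = 0.309). It ran from -0.71 to -0.29 with single libraries left out, and was smallest in size without control kidney 1.

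miR-150-5p, the lymphocyte marker, had higher mean levels after irradiation, with a wide spread between kidneys. Control kidneys 1 to 4 were at 378, 419, 734 and 381 CPM and irradiated kidneys 1 to 4 at 857, 1099.9, 629.7 and 441 CPM. Every irradiated kidney exceeded 3 of the 4 controls, and control kidney 3 lay within the irradiated range. The log2 fold change was 0.66 (SE 0.358, 95% interval -0.10 to 1.43, edgeR adjusted p = 0.291). With single libraries left out it ran from 0.42, without irradiated kidney 2, to 0.93.

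miR-342-3p, the main arm of the Evl-hosted hairpin, was at 88.6, 60.6, 94.2 and 93.8 CPM in control kidneys and at 109, 121, 100.2 and 79.7 CPM in irradiated kidneys. Irradiated kidneys 1 to 3 lay above every control and irradiated kidney 4 did not. Its log2 fold change was 0.27 (SE 0.168, 95% interval -0.09 to 0.62, edgeR adjusted p = 0.349). It ran from 0.15, without control kidney 2, to 0.39 with single libraries left out, and was 0.18 without irradiated kidney 2. miR-342-5p was at 2.13 to 6.37 CPM in controls and 4.49 to 6.0 CPM in irradiated kidneys, and its log2 fold change was 0.13 (SE 0.229, edgeR adjusted p = 0.766). Control kidney 2 held 2 counts of it, under the floor.

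Across the 7 miRNAs, 0 passed edgeR's test between irradiated and control kidneys, where 1.67% of all tested miRNAs did. An unadjusted p under 0.05 was found for 1 of the 7, against 22.2% of all tested, and limma-voom called 0 of the 7. DESeq2, another count test, called only miR-223-3p among the 7, lower (adjusted p = 0.00543). It gave an adjusted p to 326 of the 419 miRNAs and called 11.3% of those. A member without an adjusted p counts as not called. Log2 fold changes were negative for 4 (both arms of miR-142 and of miR-223) and positive for 3 (miR-150-5p and both arms of miR-342), and negative for 48.2% of all tested. Their median was -0.50, beside 0.02 over all 419, and falls among the 4 negative values. The summed level of the 7, in which miR-150-5p weighs most, went the other way. Its median was 885 CPM in control and 1040 CPM in irradiated kidneys. When libraries were scaled by their totals alone, the median of all miRNAs shifted by 0.23, and no member crossed to the other sign in this comparison.

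**Figure D2:**
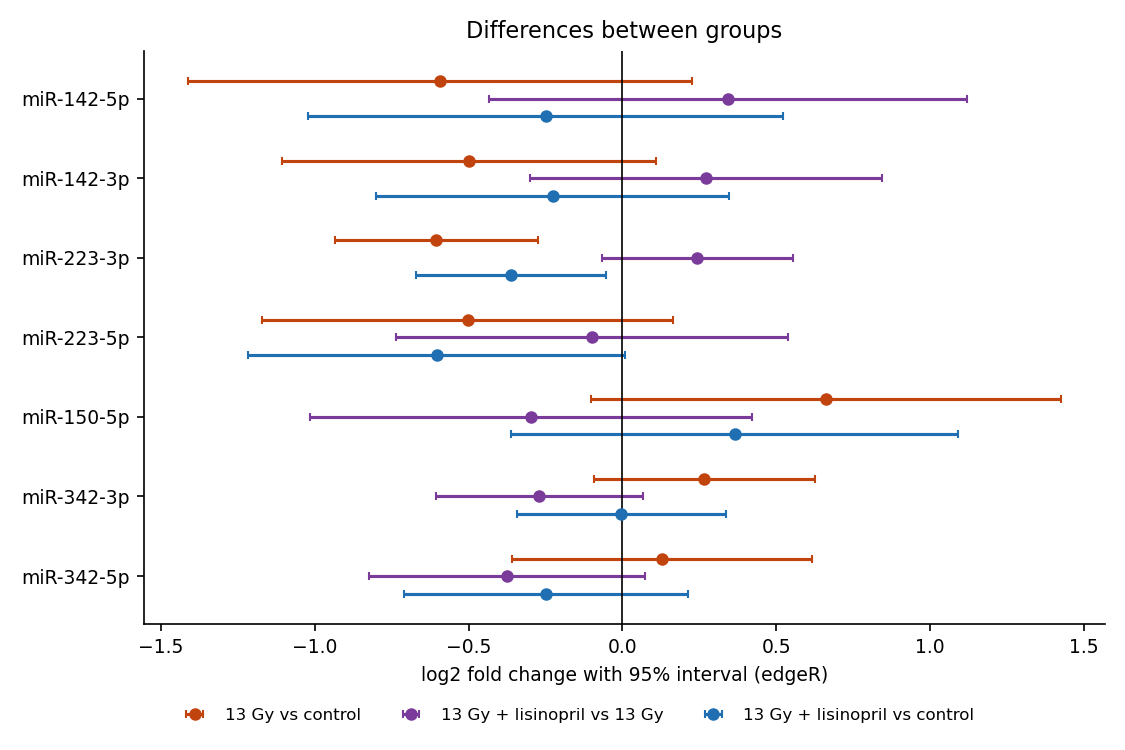
Log2 fold change (horizontal axis) with its 95% interval from the edgeR fit for each of the 7 miRNAs (vertical axis) in the 3 comparisons between groups, 1 colour per comparison. The intervals of miR-223-3p lie below 0 against control in irradiated kidneys without (-0.94 to -0.28) and with lisinopril (-0.67 to -0.05), and the other intervals include 0.

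With lisinopril, miR-223-3p was at 31.6, 33.0, 38.5, 39.3 and 41.4 CPM in kidneys 1 to 5. Of these 5 values, 3 were above every irradiated kidney without the drug, and 1 reached into the control range. Against irradiated kidneys without the drug the log2 fold change was 0.24 (SE 0.145, 95% interval -0.07 to 0.55, edgeR adjusted p = 0.416). Against control it was -0.36 (SE 0.145, adjusted p = 0.153). These comparisons share the irradiated or the control kidneys with the first and are not independent of it.

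miR-142-5p was at 114, 155, 163, 189 and 328 CPM in lisinopril-treated kidneys 1 to 5, and the last of these exceeded every other library of the study. Its log2 fold change was 0.34 (SE 0.364, edgeR adjusted p = 0.649) against irradiated kidneys without the drug. That value was 0.88 without irradiated kidney 4 (adjusted p = 0.0685) and 0.054 without lisinopril-treated kidney 5. Against control it was -0.25 (SE 0.362, edgeR adjusted p = 0.794), and -0.54 to -0.045 with single libraries left out. miR-142-3p was at 52.7, 43.6, 39.1, 43.9 and 62.8 CPM, inside the control range but for kidney 3, with log2 fold changes of 0.27 (edgeR adjusted p = 0.619) and -0.23 (adjusted p = 0.734). With single libraries left out these ran from 0.070 to 0.48 and from -0.37 to -0.014. miR-150-5p was at 1202, 598, 401, 426 and 458 CPM. Kidney 1 stood far above the other 4, and the log2 fold change against irradiated kidneys was -0.30 (SE 0.337, edgeR adjusted p = 0.663), running from -0.69 without that kidney to -0.065 without irradiated kidney 2. Against control it was 0.37 (adjusted p = 0.616), and -0.03 without lisinopril-treated kidney 1.

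Both arms of miR-342 had lower means with lisinopril than in irradiated kidneys without it. miR-342-3p was at 73.8 to 101 CPM (median 83.9) with a log2 difference of -0.27 (SE 0.158, edgeR adjusted p = 0.41). miR-342-5p was at 3.25 to 4.65 CPM (median 4.07) and differed by -0.38 (SE 0.210, edgeR adjusted p = 0.407). Only 1 of the 5 miR-342-5p values lay within the irradiated range. miR-223-5p was at 0.818 to 1.15 CPM (median 1.07) and its log2 fold change was -0.10 (edgeR adjusted p = 0.936) against irradiated kidneys and -0.60 (adjusted p = 0.277) against control. Every treated kidney lay below every control for this miRNA, which rests on 3 to 15 counts, as did 7.4% of all tested miRNAs in that comparison. Of the 7 miRNAs, 0 passed between irradiated kidneys with and without the drug, as did 0% of all tested, and 0 had an unadjusted p under 0.05, against 15% of all tested. limma-voom also called 0 of the 7 here. DESeq2 gave an adjusted p to only 166 of the 419 miRNAs here and called 6.63% of those. It called 0 of the 7, but a member without an adjusted p could not be called. Which members lacked one is not shown. Against control, 0 of the 7 passed in lisinopril-treated kidneys in edgeR, DESeq2 or limma-voom, where 6.21% of all tested passed in edgeR. For DESeq2 this again includes any member without an adjusted p. An unadjusted p under 0.05 was found for 1 of the 7, miR-223-3p, against 22.7% of all tested.

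When both irradiated groups (n = 9) were set against control (n = 4), miR-223-3p was lower, with a log2 fold change of -0.48 (SE 0.129, 95% interval -0.76 to -0.21, edgeR adjusted p = 0.0375) and a level 1.40-fold lower. It was the only one of the 7 to pass, where 7.64% of all tested miRNAs did and 5.49% were called lower. In 8 of 9 irradiated kidneys it lay below the lowest control, and lisinopril-treated kidney 5 was the exception. This call did not survive the loss of single libraries: its adjusted p reached 0.147 without control kidney 1, 0.0872 without control kidney 4, 0.069 without control kidney 2 and 0.0689 without irradiated kidney 1. It was also between 0.051 and 0.058 without irradiated kidney 3 or lisinopril-treated kidney 2, 3 or 4. Scaling by library totals gave -0.33 with an adjusted p = 0.12. For miR-142-5p, miR-142-3p, miR-150-5p and miR-342-3p the log2 fold changes were -0.42, -0.36, 0.51 and 0.13, with edgeR adjusted p-values of 0.465, 0.386, 0.338 and 0.648. The first 3 ran from -0.70 to -0.22, -0.52 to -0.15 and 0.32 to 0.80 with single libraries left out.

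Ratios of counts within a library do not depend on how libraries are scaled. The 5p arm of miR-142 outnumbered the 3p arm in all 13 kidneys, by 4.0 ± 0.395-fold in controls (n = 4), 3.59 ± 1.12-fold in irradiated (n = 4) and 3.88 ± 1.13-fold in lisinopril-treated kidneys (n = 5). The spread was narrow in controls, at 3.56 to 4.52, and wider after irradiation, at 2.47 to 5.14 without and 2.16 to 5.22 with the drug. An entry named after mouse miR-142b held a further 33.9% to 56.4% of the miR-142-3p counts in each library. Whether it takes reads of the rat miR-142 hairpin was not tested, and if so these ratios and the miR-142 levels would differ. miR-223 and miR-342 had the opposite arm preference. miR-223-5p was at 0.0445 ± 0.0244 of miR-223-3p and miR-342-5p at 0.0529 ± 0.0111 of miR-342-3p in controls. Control kidney 2 held only 3 counts of miR-223-5p and 2 of miR-342-5p. Its miR-223 ratio of 0.0805 was the highest of the controls, whose median was 0.0352. Between groups, 0 of 9 tests of arm ratios passed after Benjamini-Hochberg adjustment (two-sided exact permutation tests, smallest adjusted p = 0.75), and 0 had an unadjusted p under 0.05.

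The myeloid to lymphoid ratio, miR-223-3p over miR-150-5p, was 0.109 ± 0.0388 in control, 0.0481 ± 0.0261 in irradiated and 0.0721 ± 0.0304 in lisinopril-treated kidneys. Its parts went opposite ways with the GC slope of a library described below (r = -0.77 and 0.66), and the ratio was not tested against that slope. Controls ranged from 0.0550 to 0.145 and irradiated kidneys from 0.0243 to 0.0835, so that 3 of the 4 controls lay above every irradiated kidney. On the log2 scale the irradiated mean was lower by 1.25 (two-sided exact permutation p = 0.0571, where 4 against 4 cannot go below 0.0286), and the adjusted p over the 9 ratio tests was 0.514. The lymphoid to general leukocyte ratio, miR-150-5p over miR-142-3p, was 9.57 ± 5.94 in control, 22.9 ± 16.6 in irradiated and 12.7 ± 6.07 in lisinopril-treated kidneys, with a log2 difference of 1.17 between the first pair of groups (exact permutation p = 0.171, adjusted p = 0.514). That difference ran from 0.73, without irradiated kidney 2, to 1.60 with single libraries left out. miR-223-3p over miR-142-3p was 0.887 ± 0.259 in control, 0.844 ± 0.262 in irradiated and 0.779 ± 0.160 in lisinopril-treated kidneys, and every lisinopril-treated kidney was below 1, and 0 of its 3 comparisons had an unadjusted exact permutation p under 0.05.

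The 7 miRNAs differed in how much they varied between kidneys of a group. Within groups, the SD of log2 CPM was 0.61 for miR-142-5p, 0.57 for miR-150-5p and 0.45 for miR-142-3p, beside a median of 0.30 over the 419 tested miRNAs. Among the 51 tested miRNAs nearest in level to each, these SDs stood at percentiles 98.0 (miR-142-5p), 100 (miR-150-5p) and 88.2 (miR-142-3p). miR-223-3p was steadier, with an SD of 0.18 at percentile 9.80, and miR-342-3p lay in between at 0.24 and percentile 45.1.

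By Pearson r over the 13 kidneys, the arms of miR-142 and miR-223 varied together and against miR-150-5p and the arms of miR-342. That split was made after the values were seen. miR-142-5p correlated with miR-142-3p (Pearson r = 0.82, permutation p = 0.00057, adjusted p = 0.00646 over 21 pairs; Spearman rho = 0.73, p = 0.00653) and with miR-223-3p (r = 0.80, permutation p = 0.00123, adjusted p = 0.00646; rho = 0.81, p = 0.00126). miR-150-5p ran against miR-223-3p (r = -0.81, permutation p = 0.00083, adjusted p = 0.00646; rho = -0.82, p = 0.00081) and against miR-142-5p (r = -0.78, permutation p = 0.00161, adjusted p = 0.00676; rho = -0.73, p = 0.00577). Without the 2 libraries farthest from the median of the miR-142 or miR-223 arm on the first axis of each pair, these 4 values of r were 0.72, 0.77, -0.74 and -0.74. They held inside the groups as well, since deviations from the group means gave 0.77, 0.84, -0.89 and -0.73. miR-150-5p and miR-342-3p correlated at r = 0.71 (permutation p = 0.00494, adjusted p = 0.0148; rho = 0.64, p = 0.0223), and r was 0.59 without the 2 farthest libraries. All 12 values of Pearson r between a miR-142 or miR-223 arm and miR-150-5p or a miR-342 arm were negative (-0.81 to -0.27). Of these, 8 had an adjusted permutation p under 0.05. All 9 within those sets were positive (0.15 to 0.82), 6 of them at an adjusted permutation p under 0.05. By Spearman rho fewer pairs passed in both sets, and not every sign held. For miR-223-5p with miR-342-5p rho was 0.03, and for miR-150-5p with miR-342-5p it was -0.18. Control kidney 2 held 3 counts of miR-223-5p and 2 of miR-342-5p. Without it r was 0.26 and -0.02 for these pairs. With the GC slope of each library removed, as described next, 10 of the 12 and 7 of the 9 values of Pearson r kept their sign. Values of CPM share a library total, and the arms of a hairpin share a transcript.

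**Figure D3:**
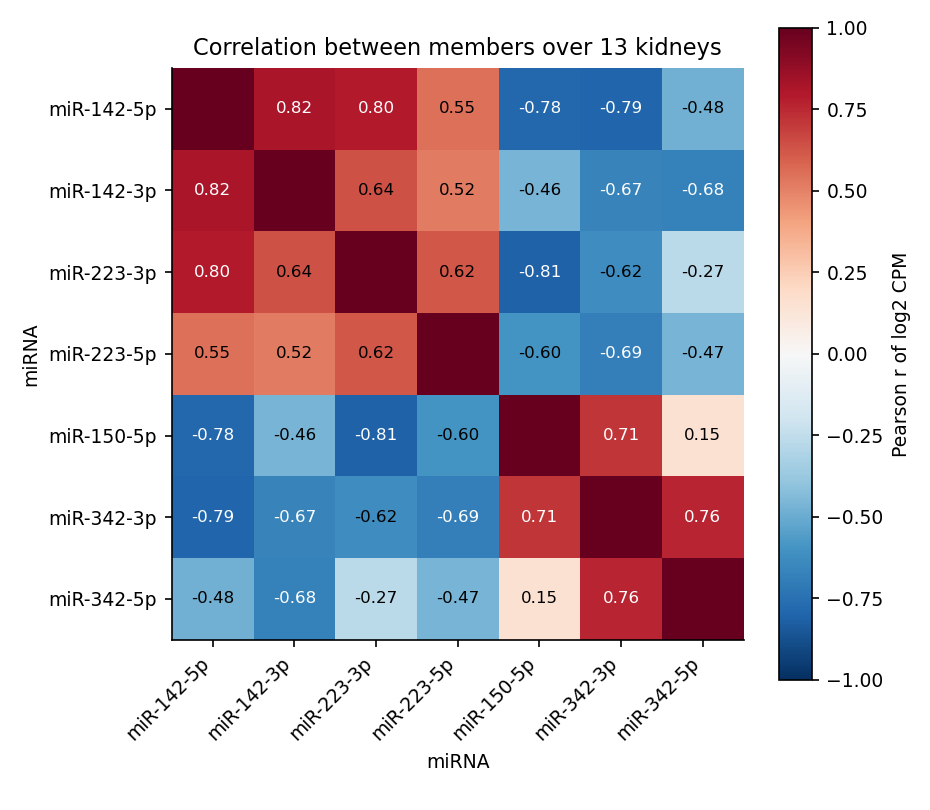
Pearson r of log2 CPM over 13 kidneys for each pair of the 7 miRNAs, from -1 (blue) to 1 (red), with the value in each cell and the diagonal left blank. The block of miR-142 and miR-223 arms is positive (0.52 to 0.82) and every cell between it and miR-150-5p or the miR-342 arms is negative (-0.81 to -0.27).

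Base composition of the libraries moved with these levels. For each library, the deviations of 371 other tested miRNAs from their means over libraries were regressed on GC content, a measure added after the data were seen. The resulting GC slope, in log2 units per 10 percentage points of GC, ran from -0.23 in control kidney 1 to 0.36 in irradiated kidney 2, and a positive slope means that GC-rich miRNAs stood high in that library. It was -0.09 ± 0.10 in control, 0.11 ± 0.21 in irradiated and -0.02 ± 0.05 in lisinopril-treated kidneys. Irradiated kidney 4 stood at -0.14 while irradiated kidneys 1 to 3 stood at 0.03, 0.36 and 0.20. The irradiated mean was higher than control by 0.20 (two-sided exact permutation p = 0.171, adjusted p = 0.23 over 3 comparisons).

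miR-142-5p correlated with the GC slope at r = -0.89 (permutation p = 1e-05, the smallest that the permutations can give; adjusted p = 0.00014 over 14 relations; rho = -0.92, p = 4e-05) and miR-142-3p at r = -0.90 (permutation p = 5e-05, adjusted p = 0.00035; rho = -0.76, p = 0.0037). For miR-223-3p r was -0.77 (permutation p = 0.00171, adjusted p = 0.00798; rho = -0.75, p = 0.00415). miR-150-5p (r = 0.66, permutation p = 0.0123, adjusted p = 0.043; rho = 0.60, p = 0.0332) and miR-342-3p (r = 0.67, permutation p = 0.0153, adjusted p = 0.043; rho = 0.75, p = 0.00474) went the other way. Without control kidney 1 and irradiated kidney 2, the libraries farthest from the median slope, r was -0.87 for miR-142-5p, -0.75 for miR-142-3p, -0.52 for miR-223-3p, 0.43 for miR-150-5p and 0.66 for miR-342-3p, so that the relations of miR-223-3p and miR-150-5p rest in part on those libraries. miR-223-5p (r = -0.54, permutation p = 0.0693; rho = -0.61, p = 0.0298) and miR-342-5p (r = 0.46, permutation p = 0.118; rho = 0.40, p = 0.177) did not pass after adjustment.

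With the GC slope as a covariate in the edgeR fit, the irradiated to control log2 fold change of miR-142-5p went from -0.59 to 0.10 (adjusted p = 0.92), that of miR-142-3p from -0.50 to 0.08 (adjusted p = 0.92) and that of miR-150-5p from 0.66 to 0.12 (adjusted p = 0.925). That of miR-342-3p went from 0.27 to 0.05 (adjusted p = 0.927). miR-223-3p was then at -0.41 (SE 0.149, adjusted p = 0.337). Over both irradiated groups it was at -0.35 (adjusted p = 0.093), where it no longer passed. After the line on the GC slope was removed, r was 0.07 between miR-142-5p and miR-142-3p, 0.38 between miR-142-5p and miR-223-3p, -0.63 between miR-223-3p and miR-150-5p, -0.58 between miR-142-5p and miR-150-5p and 0.49 between miR-150-5p and miR-342-3p, given as a description. The sign turned for 4 of the 21 pairs: miR-142-3p with miR-150-5p (-0.46 to 0.41), miR-223-3p with miR-342-5p (-0.27 to 0.16), miR-142-3p with miR-223-3p (0.64 to -0.20) and miR-150-5p with miR-342-5p (0.15 to -0.22). What sets the GC slope of a library was not tested.

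**Figure D4:**
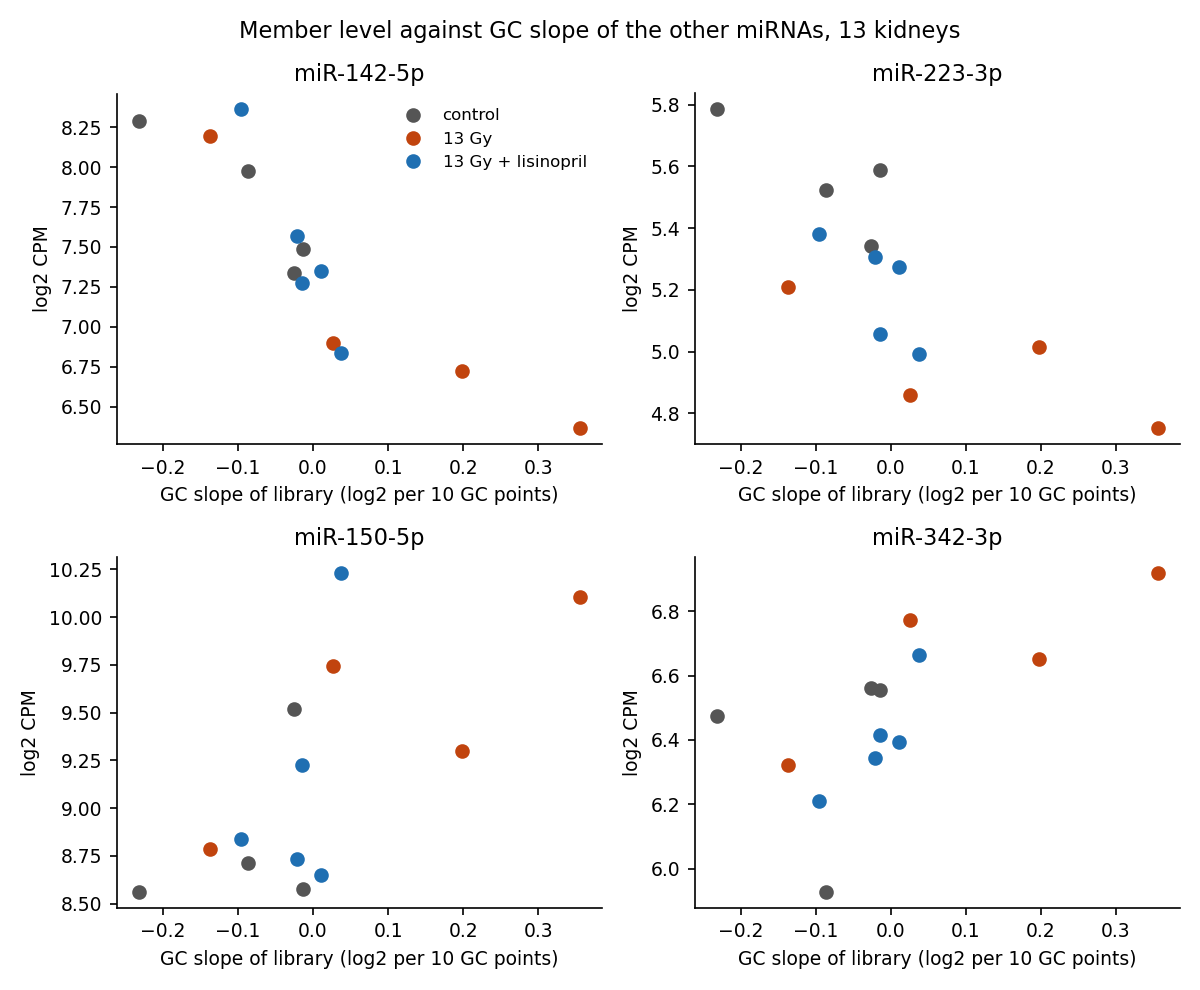
Log2 CPM (vertical axes) of miR-142-5p, miR-223-3p, miR-150-5p and miR-342-3p against the GC slope of each library (horizontal axes, log2 units per 10 percentage points of GC), 1 point per kidney, coloured by group. miR-142-5p falls along the slope (r = -0.89) and miR-342-3p climbs along it (r = 0.67), and irradiated kidney 4, at a slope of -0.14, lies apart from the other 3 irradiated kidneys.

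Blood in the tissue was gauged from erythroid miRNAs. miR-451-5p, the main miRNA of red cells, ranged from 15.5 to 101 CPM in control, 2.23 to 219 CPM in irradiated and 1.55 to 161 CPM in lisinopril-treated kidneys, and these ranges overlapped. All 4 erythroid miRNAs were counted, and miR-144-5p was at 0 in 1 library. Their summed level was 918 to 2104 CPM in control, 790 to 4229 CPM in irradiated and 674 to 3491 CPM in lisinopril-treated kidneys. Most of that sum was miR-486, at means of 1423, 2031 and 1909 CPM in these groups, so it says little of the other erythroid miRNAs. Of the 4, 0 passed in any comparison. For the 7 leukocyte miRNAs r with miR-451-5p lay between -0.32 for miR-342-5p (permutation p = 0.297; rho = -0.50) and 0.46 for miR-142-3p (permutation p = 0.11; rho = 0.53), and 0 of 7 passed (smallest adjusted p = 0.207 over 14 relations). For miR-223-3p it was 0.05 (permutation p = 0.879; rho = -0.12).

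Of 13 other miRNAs linked to immune cells and inflammation that were listed, 10 were in the table and 9 were tested. Between irradiated and control kidneys 0 of the 9 passed, with a median log2 fold change of -0.32, and 0 passed with lisinopril against either group, beside 1.67%, 0% and 6.21% of all tested in those comparisons. Over both irradiated groups 1 fell and 0 rose, where 7.64% of all tested passed, so that with 9 miRNAs the list's count lies near that share. That was miR-146a-5p, which NF-kB induces in macrophages and other cells, at 1177 CPM in control, 704 CPM in irradiated and 683 CPM in lisinopril-treated kidneys on average (log2 fold change -0.76, edgeR adjusted p = 0.0433). miR-155-5p, induced in activated leukocytes, had the next smallest p (-0.59, adjusted p = 0.0682). Among markers of other cells, 0 of 2 endothelial and 0 of 4 tubular miRNAs passed in any comparison. Of 4 smooth muscle and fibroblast miRNAs only miR-214-3p was called higher over both irradiated groups, from 49.4 CPM in control to 88.5 and 74.0 CPM (0.71, edgeR adjusted p = 0.0456). There miR-199a-3p, miR-143-3p and miR-145-5p did not pass (0.12, 0.13 and 0.09). In irradiated kidneys 1 to 4 the log2 CPM of miR-214-3p was 6.05, 7.21, 6.25 and 6.02. Whether the calls of miR-146a-5p and miR-214-3p hold with single libraries left out or with the GC slope as a covariate was not checked. Between irradiated and control kidneys the smallest p among the endothelial miRNAs belonged to miR-126a-3p (-0.21, adjusted p = 0.285), and among the tubular ones to miR-192-5p (-0.56, adjusted p = 0.134).

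The tested miRNAs whose profiles over the 13 kidneys were most like each member were found by Pearson r of log2 CPM and are given as a description. Those most like miR-142-5p were miR-30a-5p (r = 0.92), miR-29b-3p (0.91) and miR-3587 (0.91), and those most like miR-142-3p were miR-19a-5p (0.86), miR-190a-5p (0.86) and miR-29b-3p (0.86). Of these, miR-30a-5p is on the list of kidney tubule markers. Its r with miR-142-5p exceeded that of miR-142-5p with miR-142-3p (0.82), and the reason was not tested. miR-223-3p was most like miR-26b-5p (0.87), miR-30e-5p (0.85) and miR-411-5p (0.85), and miR-223-5p most like miR-499-5p (0.93), miR-708-5p (0.89) and miR-379-5p (0.86). miR-150-5p was nearest to miR-3585-3p (0.95), miR-3577 (0.92) and miR-1843-3p (0.90). miR-342-3p was nearest to miR-331-3p (0.92), miR-3085 (0.89) and miR-874-5p (0.88), and miR-342-5p to miR-218a-1-3p (0.91), miR-874-5p (0.84) and miR-6319 (0.83). The GC content of the 3 miRNAs most like miR-342-3p was 61.9%, 66.7% and 71.4%, and that of the 3 most like miR-142-3p was 40%, 22.7% and 34.8%. Other members were more mixed. In the same order the values were 45.5%, 34.8% and 38.1% for miR-142-5p and 33.3%, 40.9% and 47.6% for miR-223-3p. They were 33.3%, 47.8% and 47.6% for miR-223-5p and 47.6%, 71.4% and 52.4% for miR-342-5p. The miRNA nearest to miR-150-5p held 52.6%, and the others listed for it had no matched sequence.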

How the data were processed

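Small RNA libraries were made by the submitters from 1 µg of kidney total RNA with a TruSeq small RNA kit, per the labels' protocols. Trim Galore 0.2.5, Bowtie 1.1.1 and the rn4 build are named in the submitters' processing notes, and the step that turned alignments into counts is not given there. The authors' deposited values are whole-number counts of reads, not normalized, for 1121 features in each of the 13 libraries. The 460 rat mature miRNAs were used. The 194 named after other species entered an alternative, and the 467 predicted features were not used.

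Counts were fitted in edgeR 4.0.16 (R 4.3.3) with filterByExpr (419 miRNAs kept), TMM scaling and a quasi-likelihood fit of all 13 libraries with 1 mean for each group, so that the spread was estimated jointly. Benjamini-Hochberg adjustment ran over 419 miRNAs, at a threshold of 0.05. SEs and 95% intervals come from the quasi-likelihood F statistic. Log2 CPM adds a prior count of 2. Ratios added 0.5 to both counts and were compared with two-sided exact permutation tests. Correlations used 100000 permutations. The labels give no batch or pairing. The 7 miRNAs and the marker lists were chosen with earlier results of these data known. The rule for naming took all 7 members, the 3 miRNAs most like each, and from each list those called or with the smallest p. Alternatives were RLE factors, library totals, library sizes without the most abundant miRNA, other low-count filters, DESeq2 1.42.0, limma-voom (limma 3.58.1), fits of only the groups compared, other-species miRNAs added, each library left out, and, added after the data were seen, the GC slope as a covariate. The procedure was tested on simulated data.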

Additional observations from a re-analysis of the deposited data

Results flagged for a closer look

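Of 39 sets checked (13 measures in 3 groups), 3 held a kidney far from the rest of its group, and chance alone gives about 1 in 20. miR-150-5p was at 734 CPM in control kidney 3, with the other 3 controls at 378 to 419 CPM. It was at 1202 CPM in lisinopril-treated kidney 1, with the other 4 at 401 to 598 CPM. miR-342-3p was at 60.6 CPM in control kidney 2, the shallowest library, with the other controls at 88.6 to 94.2 CPM.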

How the results depend on the processing

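Over the 4 comparisons, members kept their direction and side of the threshold in 495 of 536 refits. All but 1 of these 28 member results were not called in the main fit, so keeping that side asks little. The called one, miR-223-3p over both irradiated groups, stayed called in 11 of 22 refits. Log2 ratios kept their direction in 175 of 190, and group means stayed within 1 SD in all 315. For each mean, 13 of 15 refits left out 1 library. Leaving out 1 of 4 or 5 kidneys cannot by itself move a mean by 1 SD, so that outcome was nearly fixed in advance. A member to which DESeq2 gave no adjusted p was counted there as not past the threshold. The cause of each exception was not tested. miR-223-3p in irradiated against control kidneys passed with a mean of at least 10 CPM required (-0.62, adjusted p = 0.0303) and in DESeq2 (-0.60, adjusted p = 0.00543), and lay between -0.69 and -0.52 with single libraries left out. miR-142-5p there lay between -1.13 and -0.38. Over both irradiated groups miR-223-3p did not pass with library totals (-0.33), with other-species miRNAs added (-0.44) or with the GC slope as a covariate (-0.35), and lay between -0.56 and -0.40 with single libraries left out (adjusted p 0.022 to 0.147). Scaling by library totals moved the median of all miRNAs by 0.23 for irradiated against control, -0.19 for lisinopril against irradiated and 0.14 for both irradiated groups.

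The sign turned in the following cases, none of them past the threshold under the setting that turned it. With the GC slope as a covariate, irradiated against control gave 0.10 for miR-142-5p, 0.077 for miR-142-3p and -0.095 for miR-342-5p. Lisinopril against irradiated gave -0.065, -0.040 and 0.049 for miR-142-5p, miR-142-3p and miR-150-5p. Lisinopril against control gave 0.036 for miR-142-5p and 0.037 for miR-142-3p, and both irradiated groups gave 0.068, 0.057 and -0.015 for miR-142-5p, miR-142-3p and miR-342-3p. miR-342-3p in lisinopril against control turned to 0.045 with library totals, 0.0062 without a filter, 0.0071 with only the groups compared and 0.061 with other-species miRNAs, and lay between -0.12 and 0.070 with single libraries left out. miR-342-5p over both irradiated groups was 0.071 with library totals and -0.15 to 0.13 with single libraries left out. Leaving out single libraries gave -0.29 to 0.13 for miR-223-5p in lisinopril against irradiated and -0.026 to 0.67 for miR-150-5p in lisinopril against control. In the same way log2 differences of the ratio of miR-142 arms spanned -0.059 to 0.30 for lisinopril against irradiated and -0.22 to 0.098 for lisinopril against control. That of miR-223 arms spanned -0.30 to 0.22 for irradiated against control, and that of miR-342 arms -0.094 to 0.12 there and -0.21 to 0.012 for lisinopril against control. The ratio of miR-223-3p to miR-142-3p spanned -0.24 to 0.084 for irradiated against control and -0.23 to 0.072 for lisinopril against irradiated.

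Counts over all tested miRNAs moved by over 1.5 times in 55 of 156 refits. For irradiated against control, 2 were higher and 5 lower. DESeq2 gave 19 and 18, only the groups compared 1 and 0, other-species miRNAs added 1 and 0, library totals 0 lower, and single libraries left out 1 to 35 higher and 0 to 25 lower, the most without irradiated kidney 4. For lisinopril against irradiated, 0 and 0 became 4 and 7 in DESeq2, 2 lower with RLE factors, library totals, at least 10 CPM or limma-voom, and 0 to 20 higher and 0 to 27 lower with single libraries left out. For lisinopril against control, 3 higher became 6 without a filter, 6 in DESeq2, 17 with only the groups compared, 10 with other-species miRNAs and 21 with the GC slope, and 2 to 5 with single libraries left out. Its 23 lower became 15 at 10 CPM or more, 37 with other-species miRNAs, 35 with the GC slope and 11 to 27 with single libraries left out. For both irradiated groups, 9 higher became 5 with library totals, 4 without a filter and 4 at 10 CPM or more, and 3 to 24 with single libraries left out. Its 23 lower became 12 with library totals, 45 with other-species miRNAs and 13 to 30 with single libraries left out. Depth limits miR-223-5p and miR-342-5p most, at 3 to 15 and 2 to 54 counts. No paired analysis was possible because the labels pair no samples across groups.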

Other observations

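An entry named after mouse miR-142b stands in the part of the table for other species. Its counts, set against those of rat miR-142-3p, were highest in irradiated kidney 1 at 56.4%. Its level was 21.5 ± 6.80 CPM in control (n = 4), 18.4 ± 6.88 CPM in irradiated (n = 4) and 19.6 ± 6.26 CPM in lisinopril-treated kidneys (n = 5). The opposite arm of the lymphocyte hairpin, miR-150-3p, was counted 2 to 24 times per library, 0.152% to 0.547% of miR-150-5p, a smaller share than that of the minor arm of the other 3 hairpins in any library.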
